A study of Mus musculus with 11 samples.

Results

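Vascular endothelial growth factors (VEGFs) and their receptors were followed through the loss of HER2 in mouse mammary carcinoma lines. The group held 10 genes of the 21846 in the deposited table, found there by symbol: the ligands Vegfa, Vegfb, Vegfc and Pgf, the receptor tyrosine kinases Flt1 and Kdr, the co-receptors Nrp1 and Nrp2, the Tie2 ligand Angpt1 and the angiopoietin-like gene Angptl4. The series holds 11 RNA libraries of cultured cells. Total counts ranged from 17040454 to 27127662 (median 20592201), so 3 counts were worth 0.114 to 0.179 CPM. CPM are counts scaled to library size with the TMM method, and they are not corrected for gene length.

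All lines came from mammary tumors of virgin female FVBhuHER2 mice, which carry a human HER2 transgene. MamBo89 (HER2 stable, 4 libraries) came from tumor A, and MamBo43 (HER2 labile) came from tumor B. MamBo43 was sequenced untreated (1 library, HER2-positive) and after trastuzumab, an antibody against HER2, at 30 µg/ml (MamBo43 TRT, 2 libraries, counted as HER2-negative by the study although some HER2-positive cells were left in that culture). MamBo38 (HER2 loss, 4 libraries) was grown from a tumor that MamBo43 cells formed in a mouse. In each line, 1 treated library had 60 days of trastuzumab and the other had 30 days followed by 30 days without it. MamBo89 and MamBo38 have 1 of each beside 2 untreated libraries, and values below keep the order untreated, untreated, 30 days followed by 30 days without, 60 days. The first untreated MamBo89 library was taken to be a clone of that line. No label says that libraries of a line came from separate cultures, so SD and p describe the spread between these libraries only. The HER2-negative libraries (n = 6) all trace to tumor B, whereas 4 of the 5 HER2-positive ones trace to tumor A. The names of the libraries end in 1 of 2 codes. MamBo38 replicates 1, 3 and 4 bear one code, and MamBo38 replicate 2 and all libraries of the other lines bear the other.

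VEGF-A drives the sprouting and permeability of blood vessels mainly through VEGFR2, the product of Kdr. VEGF-B and placental growth factor (Pgf) bind VEGFR1, the product of Flt1, which also traps VEGF-A, and VEGF-C acts chiefly on lymphatic endothelium through VEGFR3. Neuropilins bind both VEGFs and class 3 semaphorins, and tumor cells as well as vessels make them. Angiopoietin-1 quiets vessels through the receptor Tie2, and Angptl4 is a secreted inhibitor of lipoprotein lipase and a target of hypoxia and PPAR signaling.

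The labels were first set against marker genes. Mouse Erbb2 was between 117 and 165 CPM in the 5 HER2-positive libraries and between 17.9 and 31.6 CPM in the 6 HER2-negative ones. The human transgene was not analysed here, and whether its reads count toward this mouse gene was not tested. The epithelial gene Cdh1 ranged from 774 to 1084 CPM in HER2-positive, from 72.1 to 201 CPM in MamBo43 TRT and from 0.834 to 1.52 CPM in MamBo38 libraries. Of the endothelial genes, Cdh5 was at 0 to 0.0583 CPM and Pecam1 at 0 to 0.723 CPM (0 to 13 counts). In bulk RNA, fewer cells of a type and less RNA per cell cannot be told apart, and this applies to the mixed MamBo43 TRT cultures in particular.

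Vegfa and Vegfb were both called higher in HER2-negative libraries, and the 250 bases before their annotated start sites are shown for that reason (RefSeq, GRCm38.p6, minus strand, 5′ to 3′). Capitals mark the 5-base core of a hypoxia response element, ACGTG or GCGTG on either strand. The Vegfa window shown, 1 of 2 in the table, is chr17:46032378-46032627 and that of Vegfb is chr19:6987652-6987901; neither of the windows shown overlaps an annotated exon.
Vegfa: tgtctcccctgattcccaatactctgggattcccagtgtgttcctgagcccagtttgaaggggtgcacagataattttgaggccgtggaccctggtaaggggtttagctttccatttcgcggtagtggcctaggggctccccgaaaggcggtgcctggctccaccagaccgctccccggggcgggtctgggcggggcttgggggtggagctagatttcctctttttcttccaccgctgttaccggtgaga
Vegfb: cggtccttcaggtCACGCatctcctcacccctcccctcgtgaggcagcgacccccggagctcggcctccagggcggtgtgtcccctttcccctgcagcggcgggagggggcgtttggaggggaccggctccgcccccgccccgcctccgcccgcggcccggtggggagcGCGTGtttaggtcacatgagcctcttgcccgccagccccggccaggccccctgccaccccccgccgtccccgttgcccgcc
The Vegfa window shown holds 0 cores. The other Vegfa window (chr17:46025164-46025413), upstream of a start inside the gene and with 218 of its bases in Vegfa exons, holds 2, at positions -218 and -211. That of Vegfb holds 2, which begin at positions -237 and -81 from the start site. Of all 32851 promoter windows of this length, 38.6% hold at least 1 core. Of the 10 windows of members, 7 hold at least 1 core (70%). By gene, 7 of the 8 members with a window had a core in at least 1 of their windows. Besides Vegfa and Vegfb, Kdr and Nrp2 had 2 each, Flt1 and Nrp1 had 1 each, Pgf had 1 in one of its 2 windows, and Vegfc had 0. All 250 bases of both Pgf windows lie in Pgf exons. Angpt1 and Angptl4 were not matched. Such a match describes the letters of the window and no binding was measured.

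Between HER2-negative and HER2-positive libraries, Vegfa, Vegfb and Angptl4 were higher and Pgf was lower, while Nrp2 was higher by less than the minimum fold. A gene was called at an adjusted p under 0.1 (edgeR quasi-likelihood test, Benjamini-Hochberg over all tested genes) and an absolute log2 difference of at least 1. Of the 10 members, 9 were tested and Kdr had too few counts. In this comparison 4 of the 9 were called, beside 32.8% of all 12364 tested genes. Of these, 3 were higher (background 15.8%) and 1 was lower (background 17%). The HER2 groups did not overlap in any library for 5 of the 9 (Vegfa, Vegfb, Pgf, Nrp2 and Angptl4), beside 34.9% of all tested genes. With 9 tested genes these counts are read against those shares only, and no test of the group was made.

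**Figure D1:**
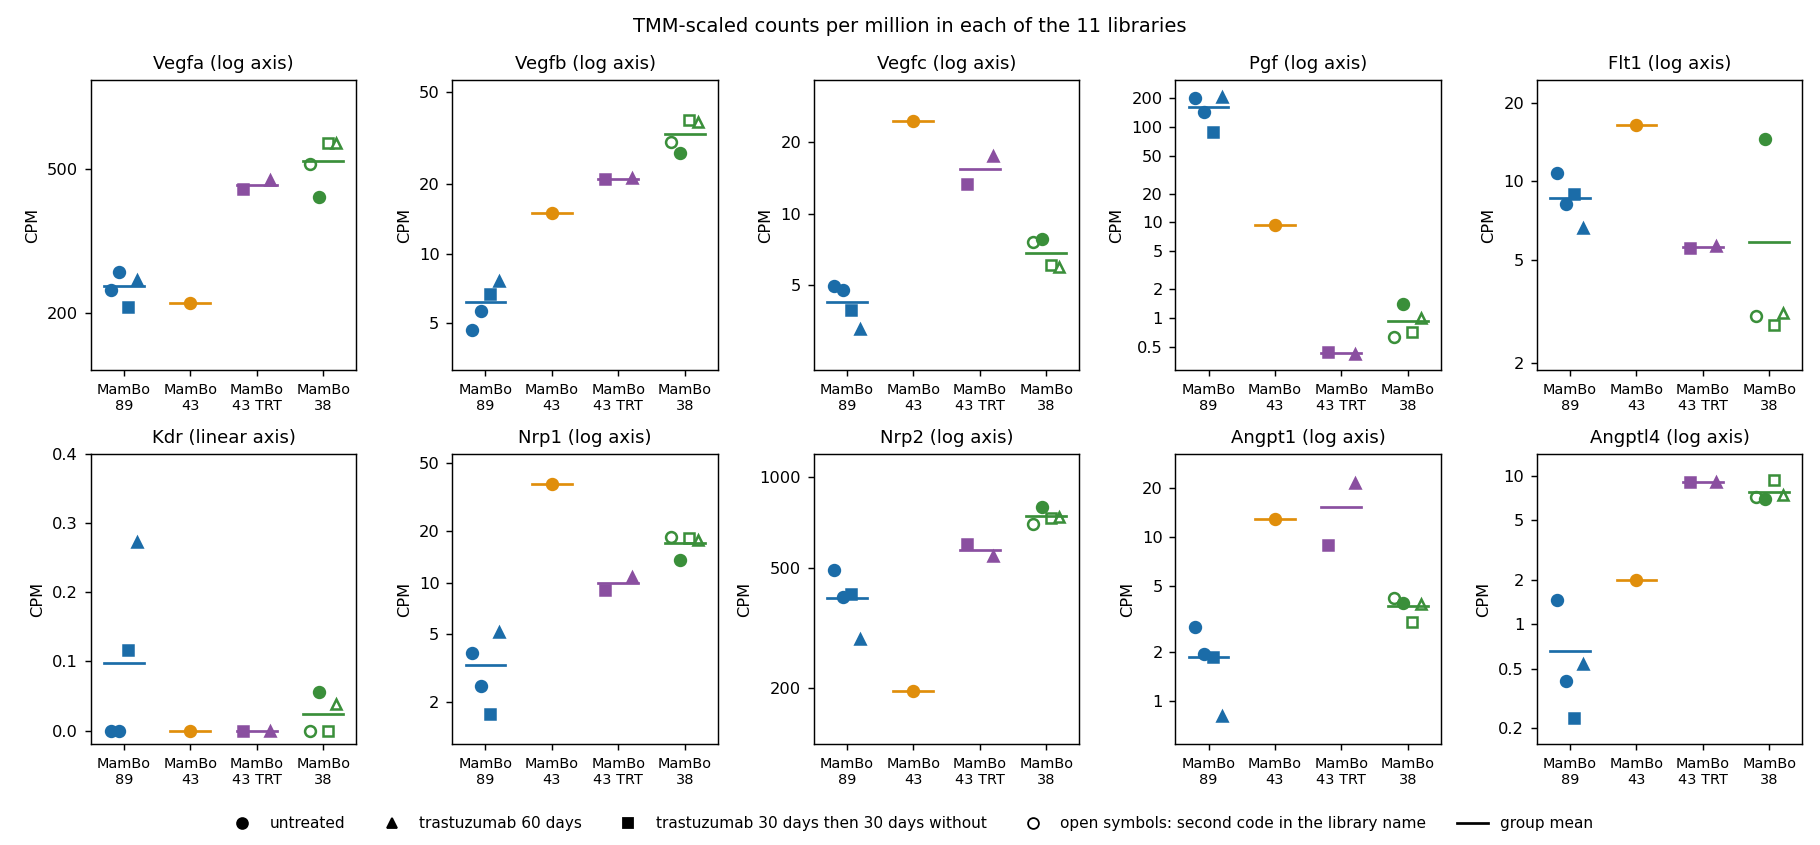
CPM of each member (log axis; linear for Kdr) in each library, by group. Symbols give the treatment, open symbols mark the 3 MamBo38 libraries with a name code of their own, and bars are group means. Vegfa, Vegfb and Angptl4 sit higher and Pgf lower in MamBo43 TRT and MamBo38 than in MamBo89, and Vegfc and Nrp1 have their highest value in the untreated MamBo43 library.

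Vegfa (chr17:46016993-46032369, GRCm38, minus strand) encodes the main angiogenic ligand. Its CPM were 231, 260, 207 and 247 in MamBo89 and 213 in MamBo43. After HER2 loss they were 440 and 467 in MamBo43 TRT and 516, 418, 589 and 590 in MamBo38. The lowest HER2-negative library (418 CPM) was thus above the highest HER2-positive one (260 CPM). Means were 503 ± 74.6 CPM (SD, n = 6) and 232 ± 22.3 CPM (SD, n = 5), a 2.16-fold difference (log2 1.11 ± 0.13 SE, adjusted p = 4.73e-05). The log2 difference was under the minimum fold when the name code was a covariate (0.93, adjusted p = 0.000265) or when only the 8 libraries of the shared code were fitted (0.94, adjusted p = 0.0025). Adjusted for tumor of origin it was 1.24 (adjusted p = 0.00554). The order of the groups was MamBo43, MamBo89, MamBo43 TRT and MamBo38. The only neighbors that differed were MamBo89 and MamBo43 TRT, by a log2 difference of 0.94 ± 0.16 (SE, adjusted p = 0.000666).

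Vegfb (chr19:6982473-6987651, minus strand) encodes a VEGFR1 ligand linked to fatty acid handling and vessel survival. It was at 4.67, 5.66, 6.70 and 7.62 CPM in MamBo89 and at 15.02 CPM in MamBo43. MamBo43 TRT had 21.1 and 21.2 CPM, and MamBo38 had 30.5, 27.2, 37.8 and 37.0 CPM. Untreated MamBo43 lay between MamBo89 and the HER2-negative libraries, and no 2 of the 4 groups overlapped. Between HER2 groups the difference was 3.64-fold (log2 1.87 ± 0.32 SE, adjusted p = 0.000596). It was 0.95 with the tumor of origin as a covariate (adjusted p = 0.106), where the call was lost. MamBo43 exceeded MamBo89 by a log2 difference of 1.29 ± 0.26 (SE, adjusted p = 0.00673), and MamBo38 exceeded MamBo43 by 1.14 ± 0.30 (SE, adjusted p = 0.0116). The first call was lost with untreated MamBo89 libraries only (1.56, adjusted p = 0.387), and the second among libraries that share a code (0.86, adjusted p = 0.175). MamBo43 TRT against MamBo43 gave 0.49 ± 0.31 (SE, adjusted p = 0.256).

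Pgf (chr12:85166635-85177790, minus strand), placental growth factor, had the widest range of the tested members on a log scale. MamBo89 libraries had 200.1, 143, 87.9 and 208 CPM, and MamBo43 had 9.31 CPM. MamBo43 TRT had 0.441 and 0.422 CPM from 9 and 11 counts. In MamBo38 the values were 0.6246, 1.39, 0.716 and 0.987 CPM, from 12 to 26 counts. Every HER2-positive library was above every HER2-negative one, and MamBo43 lay between MamBo89 and the rest. The mean was 160 ± 56.0 CPM (SD, n = 4) in MamBo89 and 0.929 ± 0.344 CPM (SD, n = 4) in MamBo38, a log2 difference of -7.42 ± 0.37 (SE, adjusted p = 8.4e-08). MamBo43 against MamBo89, lines of different tumors, gave -4.10 ± 0.56 (SE, adjusted p = 0.000642), and MamBo38 against MamBo43, from which it descends, gave -3.32 ± 0.42 (SE, adjusted p = 0.000141). MamBo43 TRT against MamBo43 gave -4.42 ± 0.56 (SE, adjusted p = 0.000453). Adjusted for tumor of origin, the log2 difference was -3.62 (adjusted p = 0.000559). MamBo43 TRT and MamBo38 did not differ by the test (log2 difference -1.10 ± 0.53 SE, adjusted p = 0.146).

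Vegfc (chr8:54077606-54187096, plus strand), the lymphangiogenic ligand, did not follow HER2 status. Its CPM were 4.97, 4.74, 3.90 and 3.26 in MamBo89, 24.5 in MamBo43, 13.3 and 17.5 in MamBo43 TRT and 7.59, 7.79, 6.08 and 5.92 in MamBo38. The untreated MamBo43 library was highest, and no 2 groups overlapped. HER2-negative against HER2-positive gave a log2 difference of 0.22 ± 0.56 (SE, adjusted p = 0.763). It was 1.20 without the MamBo43 library (adjusted p = 0.015) and -1.34 with the tumor of origin as a covariate (adjusted p = 0.0732). Of the fits that left out 1 library, that without MamBo43 TRT replicate 2 turned the direction (-0.032, adjusted p = 0.968). MamBo43 was above MamBo89 by 2.53 ± 0.28 (SE, adjusted p = 0.000167), and MamBo38 was below MamBo43, at -1.84 ± 0.28 (SE, adjusted p = 0.000468). MamBo43 TRT was above MamBo38 by 1.17 ± 0.24 (SE, adjusted p = 0.00486). That last call was lost without MamBo43 TRT replicate 2 (log2 0.96) and among libraries that share a code (log2 0.98).

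Ligand levels were next compared with each other per kb of exon, since Vegfa has 4285, Vegfb 1605, Vegfc 2449 and Pgf 2903 exonic bases. In MamBo89, Vegfa and Pgf stood at a like level, with 55.1 ± 5.28 and 55.0 ± 19.3 CPM per kb (SD, n = 4). They made 48.7% ± 7.51 and 46.4% ± 8.65 of the 4 ligands' summed CPM per kb. Vegfa made 68.7% in MamBo43, 84.4% ± 0.305 in MamBo43 TRT (n = 2) and 83.8% ± 0.824 in MamBo38 (n = 4), whereas Pgf made 4.44%, 0.119% and 0.229%. Vegfb made 3.45% in MamBo89, 13.0% in MamBo43, 10.5% in MamBo43 TRT and 14.04% in MamBo38. Vegfc made 13.9% in MamBo43 and 5.00% in MamBo43 TRT, and 1.53% and 1.96% in MamBo89 and MamBo38. The sum of the 4 ligands was 116 ± 22.5 CPM per kb in MamBo89, 72.2 in MamBo43, 125 ± 5.77 in MamBo43 TRT and 147 ± 21.7 in MamBo38 (SD, n = 4, 1, 2 and 4), with overlapping ranges for MamBo89, MamBo43 TRT and MamBo38. Shares sum to 100% within a library, so a lower Pgf raises the others by construction.

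**Figure D2:**
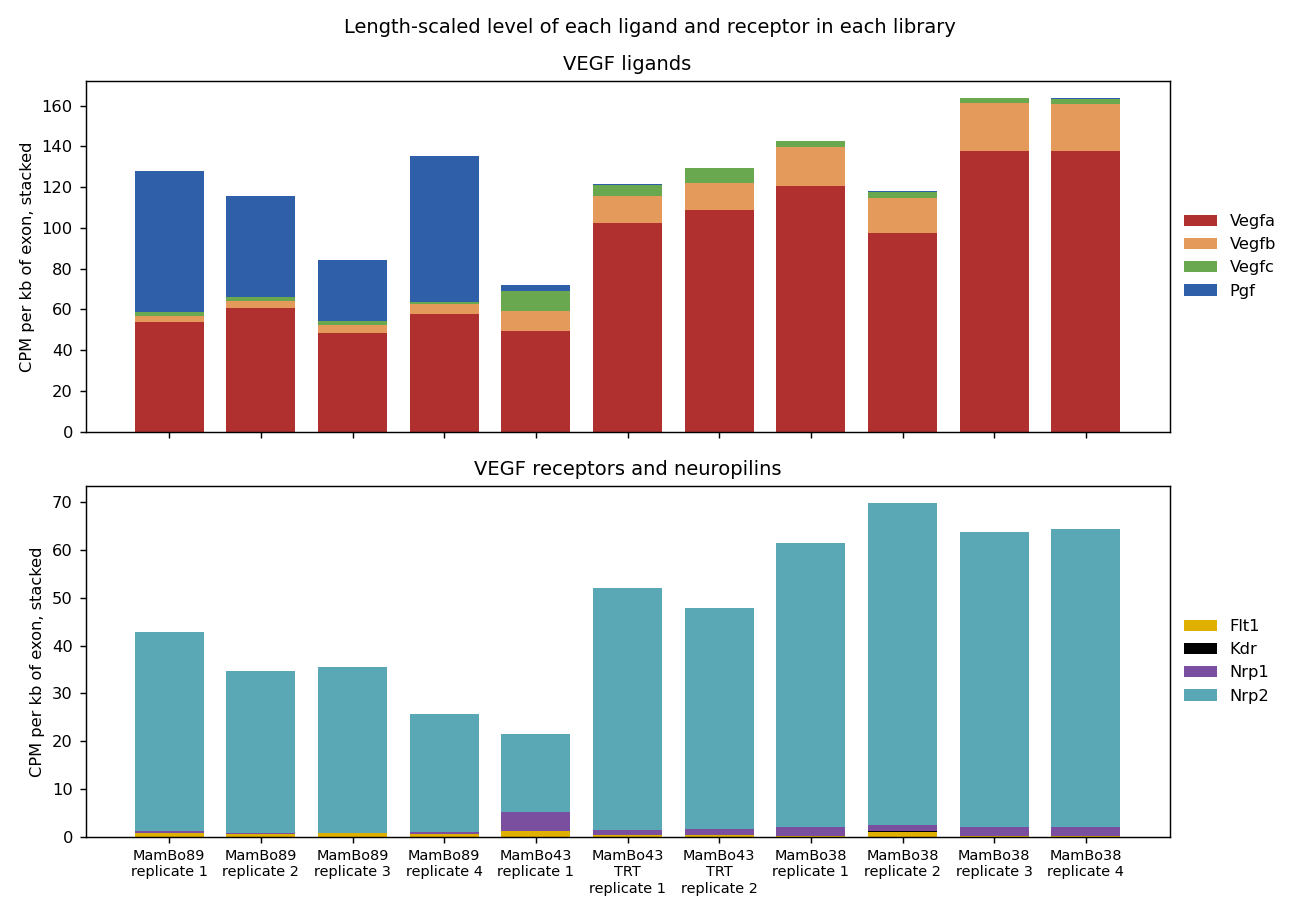
CPM per kb of exon in each of the 11 libraries (x axis), stacked over the 4 VEGF ligands (top) and over Flt1, Kdr, Nrp1 and Nrp2 (bottom). Pgf is a large part of the ligand bar only in the 4 MamBo89 libraries, and Nrp2 is the largest part of every receptor bar.

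Among receptors, Kdr (chr5:75932827-75978458, minus strand), which encodes the main signaling receptor for VEGF-A in endothelium, was at or near 0. Its counts were 0, 0, 2 and 5 in MamBo89, 0 in MamBo43, 0 and 0 in MamBo43 TRT and 0, 1, 0 and 1 in MamBo38. The highest library had 5 counts, or 0.272 CPM, and a count of 0 allows up to 0.179 CPM (3 counts) in the shallowest library with none. No difference was detectable at this depth, and no fold is given.

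Flt1 (chr5:147561604-147726011, minus strand), which encodes VEGFR1, was at 10.8, 8.15, 8.97 and 6.64 CPM in MamBo89, 16.4 CPM in MamBo43 and 5.54 and 5.64 CPM in MamBo43 TRT. The MamBo38 libraries had 3.03, 14.5, 2.80 and 3.11 CPM. MamBo38 replicate 2, the library with the code of the other lines, stood apart from the other 3, which were below every other library of the series. Endothelial markers went both ways in that library. Within MamBo38 it had the most counts of Pecam1 (13 counts, 0.723 CPM, against 0 to 6 counts in the others). It had the fewest of Plvap (5 counts, against 12, 21 and 28) and of Icam2 (0 counts, against 3, 1 and 6). The sum of 16 endothelial markers was 4.06 CPM in this library, against 3.22 to 3.75 CPM in the other MamBo38 libraries. The part of endothelial RNA in its Flt1 level was not tested. With all libraries no comparison called Flt1, and HER2-negative against HER2-positive gave -0.83 ± 0.45 (SE, adjusted p = 0.145). Without MamBo38 replicate 2 it was called lower in that comparison (log2 -1.34, adjusted p = 0.00744), in MamBo38 against MamBo89 (log2 -1.54, adjusted p = 0.00022), in MamBo38 against MamBo43 (log2 -2.46, adjusted p = 0.000147) and in MamBo43 TRT against MamBo43 (log2 -1.56, adjusted p = 0.00543). Without MamBo89 replicate 1, MamBo38 against MamBo43 was also called (log2 -1.54, adjusted p = 0.0919). Among the 8 libraries that share a code the HER2 difference was -0.24 (adjusted p = 0.706). There MamBo43 TRT against MamBo38, with MamBo38 replicate 2 alone, was called lower (log2 -1.38). Without that replicate the comparison gave 0.90. Without MamBo38 replicate 1, the treated minus untreated difference was called lower in MamBo43 than in MamBo89 (by log2 -1.28). For MamBo38 replicate 2, the code and any other property of the library cannot be told apart.

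Nrp1 (chr8:128358604-128503363, plus strand) encodes neuropilin-1, a co-receptor for VEGF-A and semaphorin 3A. CPM were 3.90, 2.49, 1.69 and 5.11 in MamBo89, 37.99 in MamBo43, 9.06 and 10.8 in MamBo43 TRT and 18.6, 13.6, 18.3 and 17.8 in MamBo38. Again the untreated MamBo43 library was highest, and the 4 groups did not overlap. The HER2 comparison gave a log2 difference of 0.51 ± 0.73 (SE, adjusted p = 0.579). That value was 2.14 without MamBo43 (adjusted p = 0.000541) and -1.38 with tumor of origin as a covariate (adjusted p = 0.0599). By line, MamBo43 exceeded MamBo89 by 3.52 ± 0.40 (SE, adjusted p = 0.000201), and both HER2-negative derivatives were below MamBo43, MamBo43 TRT at -1.94 ± 0.48 (SE, adjusted p = 0.0122) and MamBo38 at -1.16 ± 0.42 (SE, adjusted p = 0.0462). The call in MamBo38 was lost among libraries that share a code (-1.48, adjusted p = 0.174). MamBo38 nonetheless stayed above MamBo89, by 2.36 ± 0.31 (SE, adjusted p = 6.95e-05).

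Nrp2 (chr1:62703285-62818695, plus strand), which encodes the VEGF-C and semaphorin 3F co-receptor neuropilin-2, moved the other way. MamBo89 libraries had 492, 399.7, 411 and 291 CPM and MamBo43 had 194 CPM, the lowest value of the series. MamBo43 TRT had 599.9 and 549 CPM, and MamBo38 had 702, 799, 731 and 739.5 CPM. All HER2-negative libraries were above all HER2-positive ones (log2 difference 0.94 ± 0.22 SE, adjusted p = 0.00409), short of the minimum fold by a narrow margin. It became a call with the tumor of origin as a covariate (1.81 ± 0.31 SE) and without MamBo89 replicate 1 (1.10). The former rests on the 1 MamBo43 library as the HER2-positive side of tumor B. With the name code as a covariate the value was 0.86. Against MamBo43, MamBo43 TRT was 2.95-fold higher (log2 1.56 ± 0.28 SE, adjusted p = 0.00272) and MamBo38 was 3.81-fold higher (log2 1.93 ± 0.27 SE, adjusted p = 0.000283). MamBo43 was below MamBo89, at -1.03 ± 0.26 (SE, adjusted p = 0.0175), a call that fell under the minimum fold without MamBo89 replicate 1 (-0.86) or MamBo43 TRT replicate 1 (-0.97) and was lost with untreated MamBo89 libraries only (-1.18, adjusted p = 0.301).

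Per kb of exon, Nrp2 was the most abundant of the 4 receptor genes in every library. It made 97.1% ± 0.783 of their sum in MamBo89, 76.3% in MamBo43, 97.1% ± 0.432 in MamBo43 TRT and 96.6% ± 0.167 in MamBo38. In MamBo43, Nrp1 made 18.0% and Flt1 5.66%, against 1.05% to 2.70% and 0.646% to 1.85% as means of the other groups. The receptor sum was 34.6 ± 7.05 CPM per kb in MamBo89, 21.5 in MamBo43, 49.9 ± 2.91 in MamBo43 TRT and 64.9 ± 3.59 in MamBo38 (SD, n = 4, 1, 2 and 4).

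Angpt1 (chr15:42424723-42676977, minus strand), the Tie2 agonist, was lowest in MamBo89, with 2.82, 1.93, 1.86 and 0.816 CPM. MamBo43 had 12.8 CPM, MamBo43 TRT had 8.97 and 21.5 CPM, and MamBo38 had 4.23, 3.95, 3.04 and 3.91 CPM. MamBo43 and MamBo43 TRT thus overlapped, and both were above MamBo38. MamBo43 exceeded MamBo89 by 2.78 ± 0.50 (SE, adjusted p = 0.00354), and MamBo38 was below MamBo43, at -1.76 ± 0.51 (SE, adjusted p = 0.0182). These calls were lost with untreated MamBo89 libraries only (2.45, adjusted p = 0.156) and among libraries that share a code (-1.69, adjusted p = 0.207), respectively. Between HER2 groups the log2 difference was 0.89 ± 0.75 (SE, adjusted p = 0.339), and it was 2.02 without MamBo43 (adjusted p = 0.0206). MamBo43 TRT exceeded MamBo38 by 2.01 ± 0.42 (SE, adjusted p = 0.00615), which lost its call without MamBo43 TRT replicate 2 (1.25, adjusted p = 0.114) and among libraries that share a code (1.94, adjusted p = 0.181). Of the 75-base windows of Angpt1 transcripts, 12.9% also occur in Gm17473, a gene on the opposite strand that shares 737 exonic bases with it. The library kit keeps no strand, so the Angpt1 counts are uncertain in this respect.

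Angptl4 (chr17:33773750-33781830, minus strand) was scarce in HER2-positive libraries, with 1.46, 0.414, 0.233 and 0.544 CPM in MamBo89 (4 to 30 counts) and 1.995 CPM in MamBo43. MamBo43 TRT had 9.06 and 9.13 CPM, and MamBo38 had 7.21, 7.01, 9.36 and 7.44 CPM. Every HER2-negative library was above every HER2-positive one, 8.67-fold in the fit (log2 3.12 ± 0.51 SE, adjusted p = 0.000459). Accounting for tumor of origin lowered this to a log2 difference of 2.03 ± 0.78 (SE). That smaller value depends on MamBo43, the only HER2-positive library from tumor B. Within the tumor B lines, MamBo38 exceeded MamBo43 by 1.95 ± 0.72 (SE, adjusted p = 0.0495) and MamBo43 TRT exceeded it by 2.18 ± 0.76 (SE, adjusted p = 0.0521). The former call was lost among libraries that share a code (1.81, adjusted p = 0.252), and the latter without MamBo43 TRT replicate 2 (adjusted p = 0.121). MamBo43 against MamBo89 gave 1.57 ± 0.62 (SE, adjusted p = 0.106), which became a call without MamBo89 replicate 1 (2.35, adjusted p = 0.00102), with RLE size factors (adjusted p = 0.0997) and by DESeq2 (adjusted p = 0.0563).

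Seen by line, 6 of 9 tested members were called in MamBo38 against MamBo89 (5 higher and 1 lower; background 41.9%) and 6 in MamBo43 against MamBo89 (4 higher and 2 lower; background 18.9%), which are lines of different tumors. Against the untreated MamBo43 library, 8 of 9 were called in MamBo38 (4 higher and 4 lower; background 35.9%) and 5 in MamBo43 TRT (3 higher and 2 lower; background 29.1%). The 4 groups were fitted together, and the MamBo43 library, which has no replicate, was assumed to vary like the others. MamBo43 TRT against MamBo38 called 2 members (both higher; background 20.4%), Vegfc and Angpt1, and MamBo43 TRT against MamBo89, a comparison added after the data were seen, called 6 (5 higher and 1 lower; background 39%). Comparisons with MamBo43 or MamBo89 share those libraries and are not independent of one another. With the 2 untreated MamBo89 libraries alone, MamBo43 against MamBo89 called 3 of 9 members, beside 7.4% of all tested genes. Among the 8 libraries that share a code, MamBo38 against MamBo43 called 3 of 9 instead of 8, beside 29.4% of all tested genes.

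**Figure D3:**
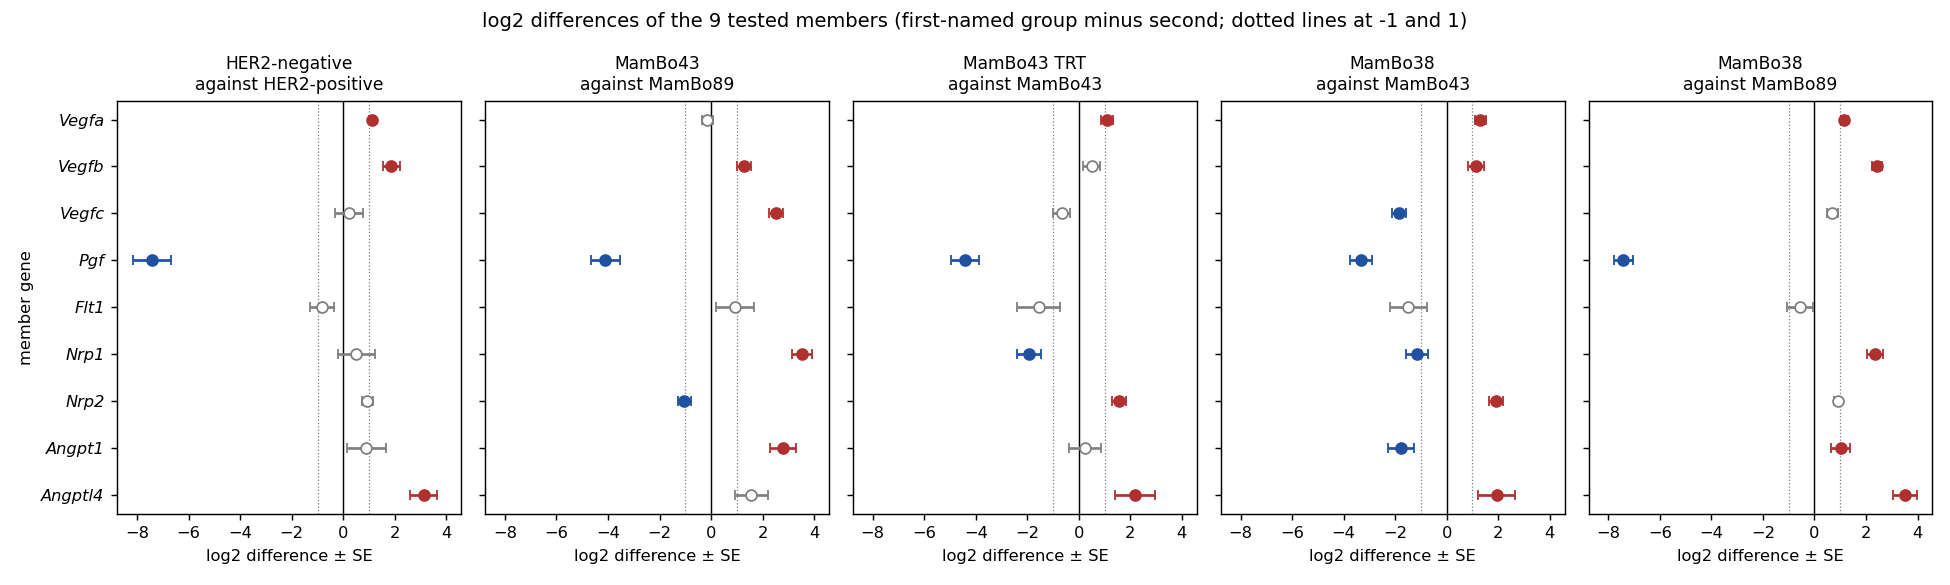
Log2 difference ± SE (x axis) of each tested member (y axis) in 5 comparisons, first-named group minus second. Filled points passed both thresholds, red for higher and blue for lower, and open grey points did not. Vegfc, Nrp1 and Angpt1 lie on the right in MamBo43 against MamBo89 and on the left in MamBo38 against MamBo43, and Nrp2 does the reverse.

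The effect of trastuzumab itself was asked in the lines whose HER2 status did not change. Treated against untreated libraries (n = 2 each) called 0 of 9 members in MamBo89 and 0 of 9 in MamBo38, beside 0% of all tested genes in each (background 0% and 0%). By an unadjusted p under 0.05, 186 and 503 genes differed, and DESeq2 called 3 and 4 genes. In MamBo89 the member values ranged from -1.25 ± 0.97 (Angptl4) to 0.47 ± 0.43 (Vegfb, log2 ± SE), and in MamBo38 from -1.57 ± 0.73 (Flt1) to 0.36 ± 0.13 (Vegfb). These 0 counts rest on the pairs of untreated libraries that were compared: without MamBo89 replicate 2, which leaves the clone as the only untreated library, 2296 genes but no member were called, and without MamBo38 replicate 1, which leaves replicate 2, 1057 genes were called and Flt1 was among them (log2 -2.28, adjusted p = 2.42e-06).

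The difference between lines in the trastuzumab effect was then tested in a model of 6 groups, added after the data were seen. The effect in MamBo43 differed from that in MamBo89 for 5 of 9 members (3 higher and 2 lower; background 22.2%). For Vegfa the difference of log2 effects was 1.20 ± 0.28 (SE, adjusted p = 0.0289), for Nrp2 it was 1.90 ± 0.34 (SE, adjusted p = 0.0122), and for Pgf it was -4.21 ± 0.73 (SE, adjusted p = 0.0109). Angptl4 (3.42 ± 0.93 SE, adjusted p = 0.0428) and Nrp1 (-2.04 ± 0.71 SE, adjusted p = 0.084) were also called. From the effect in MamBo38, it differed for 3 of 9 (1 higher and 2 lower; background 19.6%): Nrp2 (1.60 ± 0.34 SE, adjusted p = 0.0193), Pgf (-4.22 ± 0.86 SE, adjusted p = 0.0171) and Nrp1 (-2.09 ± 0.69 SE, adjusted p = 0.0797). Nrp1 lost its call in 8 of 10 fits that left out 1 library (against MamBo89) and in 6 of 10 (against MamBo38), and Angptl4 lost it without MamBo43 TRT replicate 2 (adjusted p = 0.103) or MamBo89 replicate 3 (adjusted p = 0.101). In MamBo43, treatment and HER2 loss came together and cannot be told apart.

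**Figure D4:**
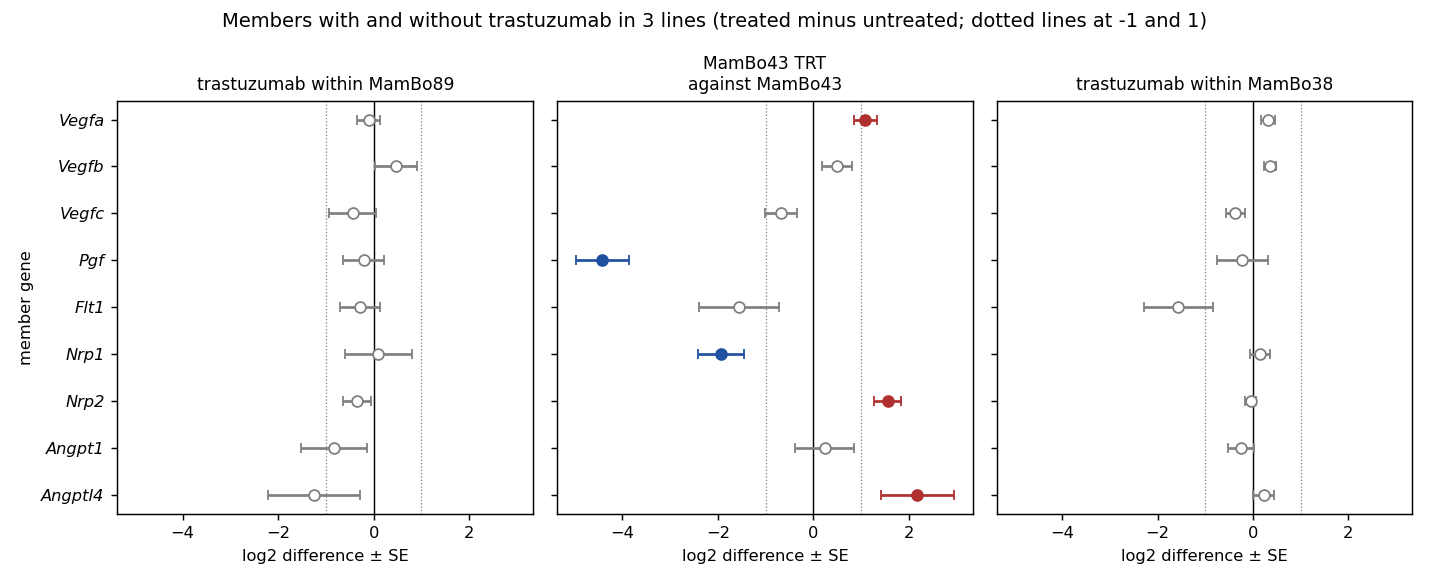
Log2 difference ± SE (x axis) of each tested member (y axis), treated minus untreated, in MamBo89 (n = 2 and 2), MamBo43 (n = 2 and 1) and MamBo38 (n = 2 and 2). Filled points passed both thresholds. Pgf, Nrp1, Nrp2, Vegfa and Angptl4 passed in MamBo43, and no member passed in the other lines.

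Other genes of the VEGF and angiopoietin families were uneven in level. Of 12 further genes in the table, 4 had 3 counts or fewer in every library, and 8 did in every MamBo89 library. The 12 summed to 73.0 to 111 CPM in MamBo89, 21.8 CPM in MamBo43, 102 to 118 CPM in MamBo43 TRT and 314 to 465 CPM in MamBo38. Between HER2 groups 4 were tested and 3 were called, all higher in HER2-negative libraries (background 15.8%): Vegfd, a VEGFR3 ligand, Angpt2, the context-dependent Tie2 antagonist, and Angptl6. Vegfd had at most 2 counts in any HER2-positive library and 7.75 ± 4.40 CPM (SD, n = 6) in HER2-negative ones, at least 52.4-fold higher against 3 counts per library. Angpt2 had at most 1 count in HER2-positive libraries and 3.76 ± 3.08 CPM (SD, n = 6) in HER2-negative ones, at least 25.4-fold higher. Angptl6 went from 8.66 ± 5.62 (SD, n = 5) to 55.0 ± 19.3 CPM (SD, n = 6; log2 2.66 ± 0.48 SE, adjusted p = 0.000837). The fourth, Angptl2, gave 1.63 ± 0.83 (SE, adjusted p = 0.12). The receptor genes of these ligands, Flt4 (VEGFR3), Tek (Tie2) and Tie1, were too low to test, with at most 9, 5 and 1 counts in a library. The median log2 difference of the 4 tested genes was 3.66 with Vegfd and Angpt2 at their bounds, beside -0.04 over all tested genes.

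Genes that process or hold VEGFs moved in both directions. Here and in the lists that follow, counts between HER2 groups are read beside all tested genes, of which 15.8% were higher and 17% lower. Of 4 tested genes for VEGF-C processing, 1 was higher and 2 were lower (median -0.69): Ccbe1, the cofactor of VEGF-C maturation, rose from 0.801 to 7.73 CPM on average (log2 3.25 ± 0.69 SE, adjusted p = 0.0025), and the proprotein convertases Pcsk5 (log2 -7.23 ± 1.11 SE, adjusted p = 0.00029) and Pcsk7 (log2 -1.07 ± 0.23 SE, adjusted p = 0.00226) were lower. Of 10 tested heparan sulfate proteoglycans, 3 were higher and 5 were lower (median -0.64). Perlecan (Hspg2) and Gpc1 were among the higher ones, with log2 differences of 2.70 ± 0.28 and 2.54 ± 0.49 (SE), and the syndecans Sdc3 (-2.74 ± 0.63 SE) and Sdc4 (-1.81 ± 0.18 SE) among the lower ones.

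Among 11 tested class 3 semaphorins and plexins, the other partners of neuropilins, 1 was higher and 5 were lower (median -0.65, background 15.8% and 17%). Sema3a, the ligand of neuropilin-1, had 0.607 ± 1.13 CPM (SD, n = 5) in HER2-positive and 455 ± 77.9 CPM (SD, n = 6) in HER2-negative libraries (log2 9.45 ± 1.09 SE, adjusted p = 4.73e-05). Sema3b (-2.31 ± 0.58 SE, adjusted p = 0.00616) and Sema3d (-1.84 ± 0.44 SE, adjusted p = 0.0048) were lower. Against MamBo43, Sema3a was higher in MamBo43 TRT (log2 7.20) and in MamBo38 (log2 7.54), the 2 groups where Nrp1 was lower.

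The oxygen-sensing genes did not move as a block. Of 9 tested HIF pathway genes, 1 was higher and 3 were lower (median -0.50, background 15.8% and 17%). Hif1a, the oxygen-regulated subunit of HIF-1, was higher in HER2-negative libraries (281 ± 54.7 against 88.5 ± 17.1 CPM, SD; log2 1.66 ± 0.18 SE, adjusted p = 2.96e-05). Epas1, which encodes HIF-2α, was lower by the call (log2 -1.47 ± 0.65 SE, adjusted p = 0.0763), but its level was 267 CPM in MamBo43 and between 25.7 and 30.7 CPM as the means of the other 3 groups. Egln3, a HIF prolyl hydroxylase and itself a HIF target, was lower (log2 -2.39 ± 0.38 SE, adjusted p = 0.000357). Of 8 tested PPAR genes and targets, 2 were higher and 2 lower (median 0.18, background 15.8% and 17%). Pdk4 had 0 counts in all HER2-positive libraries and 2.09 CPM on average in HER2-negative ones, at least 14.2-fold higher, and Fabp4, a fatty acid binding protein gene, was also higher (log2 2.54 ± 0.43 SE, adjusted p = 0.000535). Lpl, whose product Angptl4 inhibits, was lower (log2 -1.96 ± 0.76 SE, adjusted p = 0.0475), as was Cpt1a, the gene of mitochondrial fatty acid import (log2 -1.16 ± 0.30 SE, adjusted p = 0.00795).

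Of 30 tested VEGF receptor signaling genes, 0 were higher and 4 were lower (median -0.16, background 15.8% and 17%). The phosphatase gene Ptprj (log2 -3.71 ± 0.39 SE, adjusted p = 2.82e-05) and the adaptor gene Nck2 (log2 -3.14 ± 0.22 SE) were among the lower ones. Between HER2 groups, endogenous inhibitors of angiogenesis were higher for 7 of 12 tested genes and lower for 0 (median 2.36, background 15.8% and 17%). By line 15 were tested. MamBo38 against MamBo43 gave 7 higher and 4 lower (background 35.9% called), and MamBo43 TRT against MamBo43 gave 7 and 2 (29.1%). MamBo43 against MamBo89, both HER2-positive, gave 8 higher and 2 lower (18.9%). Thrombospondin-2 (Thbs2) had 246 ± 83.8 CPM in HER2-negative (SD, n = 6) and 0.340 ± 0.729 CPM in HER2-positive libraries (SD, n = 5), and PEDF (Serpinf1) had 572 ± 118 and 1.84 ± 4.02 CPM. These 2 genes were also above MamBo89 in MamBo43 (log2 6.46 and 7.67). Both values rest on 1 MamBo43 library and on low levels, so their size is uncertain. Between HER2 groups they had the direction of the mesenchymal genes, of which 13 of 16 tested were higher and 0 were lower, among them Col1a2 (log2 7.46 ± 2.18 SE) and S100a4 (log2 7.18 ± 1.10 SE). The epithelial genes had the opposite direction there, of which 11 of 15 were lower and 0 higher, among them Cldn4 (log2 -4.70 ± 1.19 SE) and Esrp2 (log2 -4.52 ± 1.05 SE). In MamBo43 against MamBo89, 10 mesenchymal genes were higher and 1 lower, and 1 epithelial gene was higher and 0 lower. Summed inhibitors were at 7764 CPM in MamBo43, 788 to 1383 in MamBo89 and 8029 to 8617 in MamBo38. Summed mesenchymal genes were at 1306 CPM in MamBo43, 369 to 2497 in MamBo89 and 24520.5 to 33512 in MamBo38. The part of the epithelial and mesenchymal shift in any VEGF gene was not tested.

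Markers of other cell types gave the following values. Summed over 16 blood endothelial markers, the level was 47.6 to 83.8 CPM in MamBo89, 14.9 in MamBo43, 2.38 to 2.74 in MamBo43 TRT and 3.22 to 4.06 in MamBo38. Most of it in MamBo89 was Plvap (68.0 CPM on average), and 11 of the 16 had 3 counts or fewer in each MamBo89 library. Of the 16, Cldn5 and Sox17 had 0 counts in every library, and 6 (these included) had 3 counts or fewer in every library. Plvap (log2 -6.18 ± 0.67 SE, adjusted p = 3.11e-05) and Egfl7 (log2 -1.60 ± 0.67 SE, adjusted p = 0.0648) were lower in HER2-negative libraries. The sum thus had the direction of Pgf, but the list did not move as a block. Of 7 markers tested in MamBo38 against MamBo89, 2 were higher and 2 lower (median log2 1.09, background 41.9% called). The part of these markers in the Pgf difference was not tested. The 8 pericyte markers also had the direction of Pgf in their sums. These were 151 to 238 CPM in MamBo89, 176 in MamBo43, 42.97 to 61.2 in MamBo43 TRT and 49.0 to 61.8 in MamBo38. Most of this in MamBo89 was Notch3 (182 CPM on average; log2 -3.42 ± 0.26 SE between HER2 groups, adjusted p = 4.42e-06), whereas Cspg4 was higher in HER2-negative libraries (34.6 ± 13.7 against 0.481 ± 0.849 CPM, SD). The part of these markers in any member's difference was not tested either. The 6 lymphatic markers summed to at most 2.39 CPM. Of 12 leukocyte markers only Cd68 was tested and called (higher, 36.9 CPM on average in MamBo38), whereas Ptprc had at most 1 count.

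The genes most like each member in pattern over the 11 libraries were found by the root mean square difference of centred log2(CPM + 1). Vegfa was closest to Hoga1 (0.135) and Nrf1 (0.142), Angptl4 to Jdp2 (0.193) and Tmcc2 (0.234), and Nrp2 to Gnpda1 and Rassf8 (both 0.198). Vegfb was closest to Bin3 (0.200) and Abhd6 (0.223), Vegfc to Uchl3 (0.250) and Lamb2 (0.256), and Flt1 to Pak3 (0.258) and Prkag2 (0.357). Pgf was closest to Tspan1 (0.571) and Fndc1 (0.669), less tightly than the others, though its own profile varied more (root mean square 3.04, against 0.577 for Vegfa). Nrp1 was closest to Gpsm3 (0.301) and Arhgap6 (0.387), and Angpt1 to Mgmt (0.305) and Rassf2 (0.365).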

How the data were processed

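The 11 RNA libraries had been prepared with a TruSeq v2 kit, which keeps no strand, and read as 75-nucleotide single ends. The deposited values are expected counts per gene, made by the authors with STAR 2.5 and RSEM 1.3.0 in SeqBox. The build in the labels is mm10. All values were whole numbers, are not normalized and needed no rounding. The genes of the group and the gene lists were chosen with earlier results of these data known.

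Statistics were run in R 4.3.3. Low genes were dropped with filterByExpr (min.count 10, min.total.count 15), and libraries were scaled by TMM. Genes were tested with the quasi-likelihood test of edgeR 4.0.16 (prior count 0.125), with Benjamini-Hochberg adjustment over all tested genes, and a call required an adjusted p below 0.1 with a log2 difference of 1 or more in size. HER2-negative (n = 6) against HER2-positive (n = 5) libraries was a fit of 2 groups. Lines were compared in a fit of 4 groups to all 11 libraries, and trastuzumab within a line with 2 against 2. MamBo43 TRT against MamBo89 and the differences in trastuzumab effect were added after the data were seen. The SE is the absolute log2 difference over the square root of F. DESeq2 1.42.0 was an alternative. The script was tested on simulated counts. Totals ranged from 17040454 to 27127662 counts, and counts were lowest for Kdr, Pgf after HER2 loss and Angptl4 in MamBo89. Intervals and the floor of 3 counts cover counting error only.

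All 10 members were named. From each other list, up to 2 called genes with the largest positive and 2 with the most negative difference between HER2 groups were named, and genes of the VEGF and angiopoietin families were named or counted. Other genes of marker lists (Cdh5, Pecam1, Cldn5, Sox17, Tie1, Flt4, Tek, Ptprc, Cdh1) were named after their values were seen. Likeness used the 2 tested genes outside the group with the smallest difference of profiles, with a pseudocount of 1. Positions come from GENCODE M21 (GRCm38), and CPM per kb use the union of a gene's exons there.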

Additional observations from a re-analysis of the deposited data

Results flagged for a closer look

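In groups of 4 to 6 libraries, 36 member and group combinations were checked for a library that stands apart (Dixon's criterion), and 8 were flagged. Chance flags about 1 in 20 in a uniform group. The HER2 groups mix lines and share libraries with the line groups, so that rate does not hold for them. The untreated MamBo43 library stood above the other HER2-positive libraries, all MamBo89, for Vegfb (15.02 CPM), Vegfc (24.5 CPM), Nrp1 (37.99 CPM) and Angpt1 (12.8 CPM). MamBo38 replicate 2 stood apart within MamBo38 for Flt1 (14.5 CPM, higher, also among all HER2-negative libraries) and Nrp1 (13.6 CPM, lower). MamBo43 TRT replicate 2 stood above the other HER2-negative libraries for Angpt1 (21.5 CPM).

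The log2 effect of trastuzumab in MamBo43 differed from that in MamBo89 for Vegfa (1.20, adjusted p = 0.0289), Pgf (-4.21, adjusted p = 0.0109), Nrp1 (-2.04, adjusted p = 0.084), Nrp2 (1.90, adjusted p = 0.0122) and Angptl4 (3.42, adjusted p = 0.0428). It differed from that in MamBo38 for Pgf (-4.22, adjusted p = 0.0171), Nrp1 (-2.09, adjusted p = 0.0797) and Nrp2 (1.60, adjusted p = 0.0193). These differences were tested by edgeR contrasts, and untreated MamBo43 had 1 library.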

How the results depend on the processing

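Of 1240 member values under alternative settings, 1148 kept their direction and their side of the thresholds, 37 kept only the direction and lost the call, 24 gained a call and 31 changed direction. The alternatives were RLE size factors, DESeq2, other filters and thresholds, covariates, subsets of the libraries and leaving out each library. No paired analysis was possible because the library names carry no replicate numbers. Between HER2 groups, 2 members and 2597 genes were called when every library needed at least 10 counts, a filter that removes Pgf and Angptl4, and 7459 genes were called with no minimum fold. Leaving out a library gave 4 to 7 members (7 without MamBo43 replicate 1). With the tumor of origin as a covariate, Vegfc (-1.34), Nrp1 (-1.38) and Angpt1 (-0.76) reversed, as did Vegfc (-0.57) and Angpt1 (-0.52) in untreated libraries. Vegfc ranged from -0.032 to 1.20 when a library was left out. With untreated MamBo89 only, MamBo43 against MamBo89 called 3 members and 952 genes. Among the 8 libraries that share a code, which hold 1 MamBo38 library, MamBo38 against MamBo43 kept fewer calls. In MamBo43 TRT against MamBo38, Vegfc (0.98) and Angpt1 (1.94) lost their calls there, Flt1 gained one (-1.38) and Vegfa reversed (0.11). Leaving out libraries, MamBo43 TRT against MamBo38 called 0 to 3 members (0 without MamBo43 TRT replicate 2), with Flt1 from -0.30 to 0.90 (0.90, adjusted p = 0.0235, without MamBo38 replicate 2), and Angpt1 in MamBo43 TRT against MamBo43 ran from -0.52 to 0.71. The causes of these changes were not tested. Within MamBo89, trastuzumab gave 3 genes by DESeq2, 5 without the clone (Pgf 0.068) and 0 to 2296 without 1 library, with Vegfa from -0.24 to 0.018, Pgf from -0.97 to 0.28 and Nrp1 from -0.92 to 0.68. Within MamBo38 it gave 4 genes by DESeq2 and 8 among the 3 libraries that share a code (Pgf 0.45, Nrp1 -0.075, Nrp2 0.039), and without 1 library 0 to 1057 genes and 0 to 1 member, with Pgf from -0.66 to 0.45, Nrp1 from -0.075 to 0.41 and Nrp2 from -0.11 to 0.039. For the difference in trastuzumab effect against MamBo89, leaving out a library gave 3 to 5 members (3 without MamBo43 TRT replicate 2) and 1606 to 4428 genes, with Vegfb from -0.13 to 0.12 (-0.022 by DESeq2). Against MamBo38 it gave 1190 to 3486 genes, with Flt1 from -1.52 to 0.74 (-0.019 by DESeq2) and Angpt1 from -0.27 to 0.96. Where leaving out a library leaves an arm with 1, that library was assumed to vary like the others. Depth limits Kdr, Pgf in HER2-negative libraries and Angptl4 in MamBo89, where counts were lowest.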
